A study of Mus musculus with 10 samples.

Results

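The interferon response and TRIM family genes were examined in mouse liver on Affymetrix MG_U74Bv2 arrays. The members are the genes whose single symbol in the platform annotation begins with a name of an interferon gene family or of a listed interferon-induced gene: Ifi, Ifn, Irf, Oas, Gbp, Igtp, Iigp, Irgm, Isg, Mx1, Mx2, Rsad2, Usp18, Stat, Parp, Trim, Tlr, Ddx58, Dhx58, Tap1, Tap2, Bst2, Xaf1, Zbp1, Samd9, Rtp4 or Cmpk2. This gave 70 of the 7542 genes with 1 symbol, 31 of them TRIM genes and 39 others. They were measured by 92 probe sets, and the probe set with the highest mean over all 10 arrays stands for each gene. The name rule used no measured change. However, it mixes induced genes with genes that only share a prefix, such as many TRIM genes and some of the PARP genes.

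The 10 arrays came from 5 groups of male mice. TgSREBP-1a and TgSREBP-2 mice carry transgenes for the active nuclear forms of the human lipid-synthesis factors SREBP-1a and SREBP-2, and WT-Tg are their wild type littermates. These mice were 12 to 16 weeks old and ate a diet high in protein and low in carbohydrate for 2 weeks, which raises transgene expression. Scap-/- mice lack SCAP, the escort of SREBP precursors, in the liver through MX1-Cre, and WT-Scap are the corresponding wild types. Both Scap study groups were 10 to 12 weeks old, ate Teklad chow, had 4 intraperitoneal injections of polyinosinic-polycytidylic acid, and were killed 14 days after the final injection. The labels do not name the promoter that drives the transgenes. Each group is 1 pool of RNA (20 µg) from 5 livers, measured on 2 arrays, so every test below compares pools against hybridisation error, and the spread between mice is not in it.

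Interferons are secreted proteins that signal through surface receptors and STAT transcription factors to switch on antiviral genes. Type I interferons act on genes that carry the interferon-stimulated response element, through a complex that holds STAT2 and IRF9, and interferon gamma acts on genes with gamma-activated sites. Cytosolic and endosomal sensors of foreign nucleic acid start the response. Polyinosinic-polycytidylic acid is a synthetic double-stranded RNA that triggers these sensors, and the Mx1 promoter of MX1-Cre is itself an interferon target. The injected mice therefore received an interferon inducer whether or not they carried the Scap deletion, and the transgenic study mice have no such injection in their labels. Hepatocytes, Kupffer cells and endothelial cells of the liver can all respond to interferon. In whole liver RNA, a change in the number of cells of a type and a change in RNA per cell cannot be told apart.

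RefSeq promoter windows (GRCm38.p6, from 250 bases before to 50 bases after the start) were given for 54 of the 70 members and were searched for the core of the interferon-stimulated response element, GAAANNGAA, on both strands. The core was found in windows of 18 members (33.3% of 54), against 9.76% of all 27025 genes with a window and 8.56% of all 32851 windows. The following upstream stretches are shown because these members were among the most different between the groups below and carry the core before their start. Capitals mark GAAANNGAA on either strand, and each stretch reads along the gene, 5′ to 3′.
Bst2, chr8:71537548-71537642, minus strand: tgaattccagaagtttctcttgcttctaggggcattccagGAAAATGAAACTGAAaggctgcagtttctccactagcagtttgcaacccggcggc
Rsad2, chr12:26456523-26456611, minus strand: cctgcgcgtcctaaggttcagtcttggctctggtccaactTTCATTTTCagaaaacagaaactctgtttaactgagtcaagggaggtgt
Trim12c, chr7:104353350-104353417, minus strand: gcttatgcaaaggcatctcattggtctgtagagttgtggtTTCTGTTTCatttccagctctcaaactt

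The Bst2 stretch holds 2 overlapping copies of the core, the first of them also overlapping a gamma-activated form, TTCNNNGAA. That form was found in 4 members with a window (7.41%), against 9.55% of all genes. A form of the sterol regulatory element, TCACNCCAC, was found in 1 member, Trim46 (1.85%), against 1.44% of all genes. The windows of Oasl1 and Irf2bpl hold neither interferon motif, which says only that these letters are not in those windows. Gbp6 and Gbp8 had no window in the table. A match is a match of letters, not a measured binding site.

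The deposited values are log2 levels, with array medians between 5.625 and 5.662. Duplicate arrays correlated at 0.9871 to 0.9944 (Pearson r over all probe sets). The SD of the difference between duplicates was 0.162 in WT-Tg, 0.172 in TgSREBP-1a, 0.221 in TgSREBP-2, 0.246 in WT-Scap and 0.225 in Scap-/-. In the Scap study each array correlated better with an array of the other genotype than with its own duplicate, and TgSREBP-2 array 2 correlated better with WT-Tg array 2 (0.9915) than with its duplicate (0.9891). The mean of 34 of the 70 members lay below 5.64, the median of all values, where small changes are hard to see. The hepatocyte marker Apoa1 was bright on all arrays, from 12.22 to 13.39. Of 10 pancreatic acinar markers 3 were measured. Cpb1 and Cela3b were also bright in WT-Tg (9.53 to 10.54) and TgSREBP-2 (10.19 to 11.16). They were lower in TgSREBP-1a (4.98 to 6.55), WT-Scap (8.62 to 9.11) and Scap-/- (5.50 to 6.90). Ctrc measured 8.30 to 8.52 in TgSREBP-2, 6.86 to 6.96 in WT-Tg and 6.57 to 6.77 in the other groups. It was thus also highest in TgSREBP-2 and next in WT-Tg, but with only a small gap between WT-Tg and the rest. The part of these markers in the results below was not tested.

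**Figure D1:**
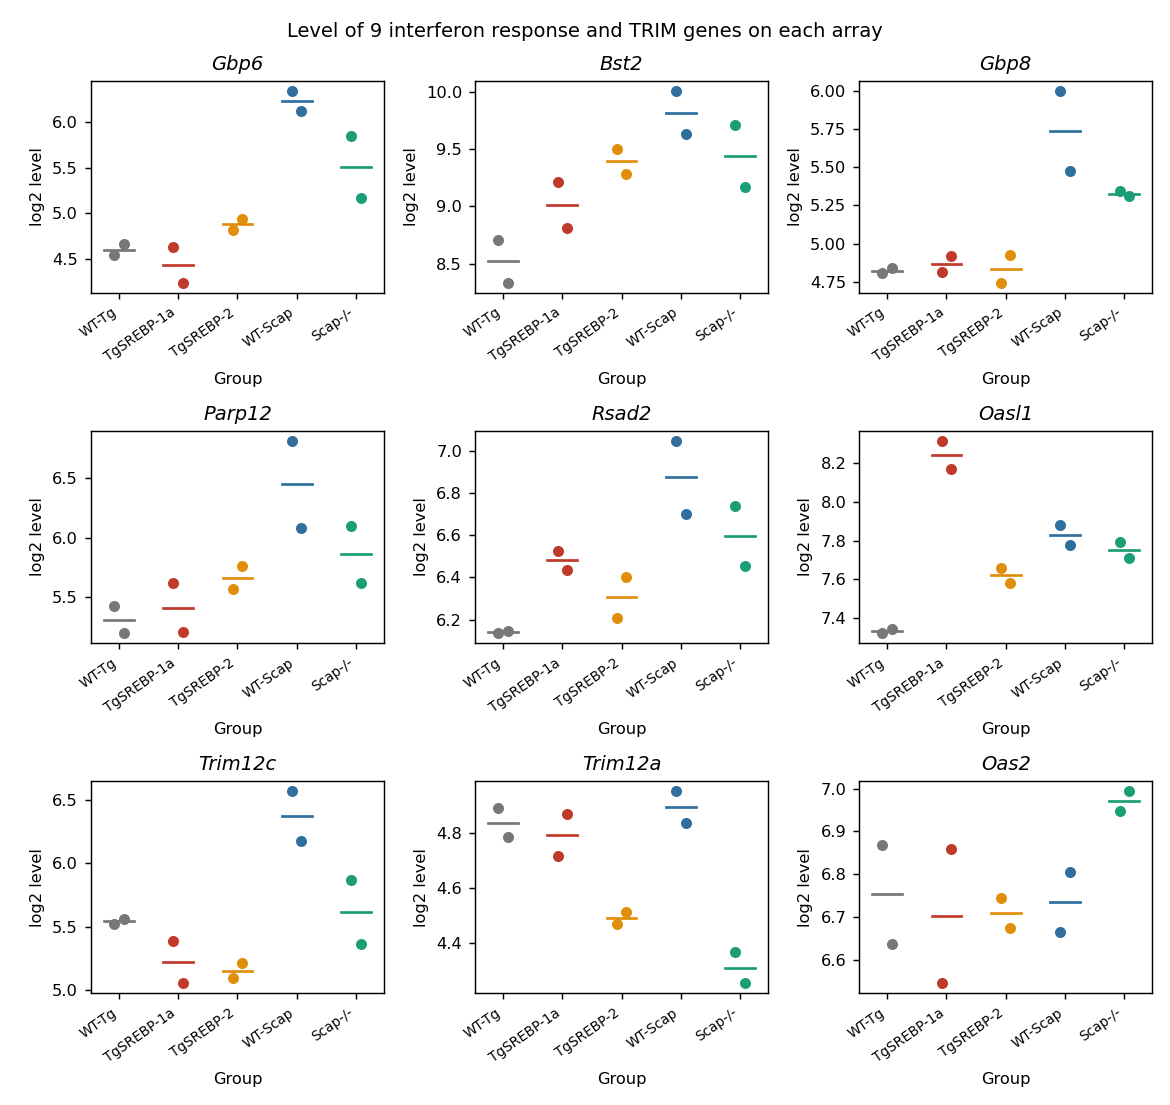
Log2 level (vertical axis) of 9 members on each array in the 5 groups (horizontal axis). Points are arrays, 2 per group from 1 RNA pool, and bars are their means. Each panel has its own scale. Gbp6, Bst2, Gbp8, Parp12 and Rsad2 are highest in WT-Scap, Oasl1 in TgSREBP-1a.

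The widest differences among the members lay between the wild type pools of the 2 studies. In WT-Scap against WT-Tg, 3 members were called higher and none lower: Gbp6 and Gbp8, guanylate-binding GTPases that attack intracellular pathogens, and Bst2, the membrane protein tetherin that holds budding viruses on the cell. A call here means an adjusted p below 0.05 and a change of at least 1.5-fold in limma's moderated test, with Benjamini-Hochberg adjustment over all 12411 probe sets. By that rule 0.508% of all probe sets were called in this comparison, 44 higher and 19 lower. These pools differ in injection, diet, age and study at once, and those cannot be told apart.

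Gbp6 measured 4.54 and 4.66 on the WT-Tg arrays and 6.34 and 6.12 on the WT-Scap arrays. The groups were far apart compared with the gap between duplicates, a log2 change of 1.63 (SE 0.20, 3.10-fold, adjusted p = 0.00713). Its Scap-/- arrays, 5.84 and 5.17, lay between, and the transgenic arrays were all at or below 4.94. Gbp8 measured 4.80 and 4.84 in WT-Tg and 6.0 and 5.48 in WT-Scap, a change of 0.92 (SE 0.15, 1.89-fold, adjusted p = 0.0284). Array 1 of WT-Scap was the higher of that pair, and the Scap-/- arrays stood at 5.34 and 5.31. Gbp9 changed by 0.17 (adjusted p = 0.687), and Gbp7 by -0.09 (adjusted p = 0.943). In the GRCm38.p6 annotation Gbp6 (chr5:105270702-105295871), Gbp8 (chr5:105012513-105053609) and Gbp9 (chr5:105076464-105110357) are neighbours, and Gbp7 lies on chromosome 3. Members of this family are alike in sequence, so one gene's transcripts may reach another's probes.

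Bst2 measured 8.71 and 8.33 in WT-Tg and 10.01 and 9.63 in WT-Scap, a change of 1.31 (SE 0.21, 2.47-fold, adjusted p = 0.0279). Its Scap-/- arrays were at 9.71 and 9.17. Array 1 exceeded array 2 in all 5 groups by 0.23 to 0.54. A second Bst2 probe set changed by -0.16 (adjusted p = 0.684). It is far dimmer (mean 4.43 against 9.24) and of a type with an incomplete probe choice. Averaging both probe sets gave 0.57 (adjusted p = 0.146), which ends the call, as did fitting only the 4 arrays compared. Of the 9 alternatives other than leaving out an array, 7 kept the call. The call was also lost without WT-Scap array 1 or either WT-Tg array.

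Other effectors were higher in WT-Scap without passing the test. Rsad2, the antiviral enzyme viperin, measured 6.13 and 6.15 in WT-Tg and 7.05 and 6.70 in WT-Scap (0.73, SE 0.14, adjusted p = 0.0525). The 2'-5'-oligoadenylate synthetase-like Oasl2 measured 6.36 and 6.30 against 6.75 and 6.95 (0.52, SE 0.11, adjusted p = 0.080). Oasl1, of the same family, measured 7.32 and 7.34 against 7.88 and 7.78 (0.50, SE 0.095, adjusted p = 0.0587). All of these pairs stood clear of each other. Samd9l, a growth and virus restriction factor, gave 4.77 and 4.71 against 5.70 and 4.95, so its gain of 0.59 (adjusted p = 0.498) rested mostly on WT-Scap array 1. Of the 14 effectors, 8 had both WT-Scap arrays above both WT-Tg arrays and 2 had both below, against 17.4% and 24.5% of all probe sets, and their median change was 0.09. Oas2, another synthetase, changed by -0.02 (adjusted p = 0.982).

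No sensor, transcription factor or receptor was called between the wild type pools. Ddx58 encodes RIG-I, the cytosolic sensor of viral RNA. It measured 6.82 and 6.70 in WT-Tg and 7.71 and 7.27 in WT-Scap (0.73, SE 0.18, adjusted p = 0.166). Among the Toll-like receptors, Tlr3, which binds double-stranded RNA in endosomes, changed by 0.16 (adjusted p = 0.643) and Tlr9, which binds unmethylated CpG DNA, by 0.00. Dhx58, a relative of Ddx58, changed by 0.06 (adjusted p = 0.941). Stat2 measured 9.05 and 9.27 against 8.95 and 8.98, a change of -0.19 (adjusted p = 0.642). That probe set is of a kind for which probe selection rules were relaxed. The other Stat2 probe set, not of that kind, changed by 0.48 (adjusted p = 0.189), so the direction of Stat2 is not settled. The interferon gamma receptor chain Ifngr2 measured 9.96 and 9.99 against 9.68 and 9.76 (-0.25, SE 0.090, adjusted p = 0.373), also on a probe set of the relaxed kind. Ifnlr1, a chain of the receptor for type III interferons, changed by 0.03, and Tap1, which carries peptides to MHC class I molecules, by 0.07.

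The PARP group held 3 of the larger differences. Parp9, Parp12 and Parp14 are macrodomain or zinc finger PARPs known as interferon-induced. Parp12 measured 5.43 and 5.20 in WT-Tg and 6.81 and 6.09 in WT-Scap (1.14, SE 0.24, adjusted p = 0.0865). Parp9 measured 7.38 and 7.28 against 8.23 and 7.87 (0.72, SE 0.15, adjusted p = 0.0907). Parp14 measured 7.18 and 7.12 against 8.24 and 7.65 (0.80, SE 0.20, adjusted p = 0.177). No array of these 3 overlapped the other group, and WT-Scap array 1 was the higher each time. The second Parp12 probe set, of a kind for which probe selection rules were relaxed, changed by -0.29 (adjusted p = 0.667). Parp6 (-0.15) and Parpbp (-0.11), which are named for the prefix rather than for an interferon role, did not go that way. Parp3, a DNA repair gene, did, and was higher without overlap (0.27, SE 0.15, adjusted p = 0.620). None of the 6 PARP genes was called.

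The TRIM genes, which encode mostly ubiquitin ligases with a tripartite motif, had no call between the wild type pools. Trim12c had the largest change of the 31, at 5.53 and 5.56 in WT-Tg against 6.57 and 6.18 in WT-Scap (0.83, SE 0.18, adjusted p = 0.104). Trim6 was lower, 8.38 and 8.40 against 8.01 and 8.02 (-0.38, SE 0.093, adjusted p = 0.163), as was Trim36 (-0.26, adjusted p = 0.464). Trim26, which is known to affect antiviral signalling, changed by 0.19 (adjusted p = 0.696) and Trim46, a microtubule organiser of neurons, by -0.13 (adjusted p = 0.720). Of the 31 TRIM genes 3 had both arrays higher and 7 both lower, no larger a share than the 17.4% and 24.5% of all probe sets, with a median change of 0.00. Of the 39 other members 19 had both higher and 6 both lower, with a median of 0.09. Over all probe sets the median was -0.02. All 70 members together gave 22 higher and 13 lower, or 31.4% and 18.6%.

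Of all probe sets the top 2.5% (2.51% after rounding to whole probe sets) had a change above 0.45, and 12 of the 70 members lay there. They were Bst2, Ddx58, Gbp6, Gbp8, Oasl1, Oasl2, Parp12, Parp14, Parp9, Rsad2, Samd9l and Trim12c. Array 1 of WT-Scap exceeded array 2 in 11 of these 12, by a median of 0.39, and array 1 of Scap-/- did so in 12 of 12, by a median of 0.44. Over all probe sets array 1 was the higher in 48.4% in WT-Scap and 53.5% in Scap-/-. In the transgenic study, array 1 was the higher for 9 of the 12 in TgSREBP-1a, 7 in WT-Tg and 4 in TgSREBP-2. The shares of all probe sets in those groups were 47.0%, 45.4% and 52.5%. Since both arrays of a pair were hybridised from 1 pool, that gap is not a difference between mice. The count of called members turned on single arrays: 8 were called without WT-Scap array 2, 1 without WT-Scap array 1, and 0 without either WT-Tg array. Without WT-Tg array 1 or array 2, Gbp6 kept a change of 1.57 or 1.69 with an adjusted p of 0.0810 or 0.0693. Fitting only these 4 arrays left Gbp6 as the 1 call. Treating the replicate number as a block called more members, as given at the end.

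**Figure D2:**
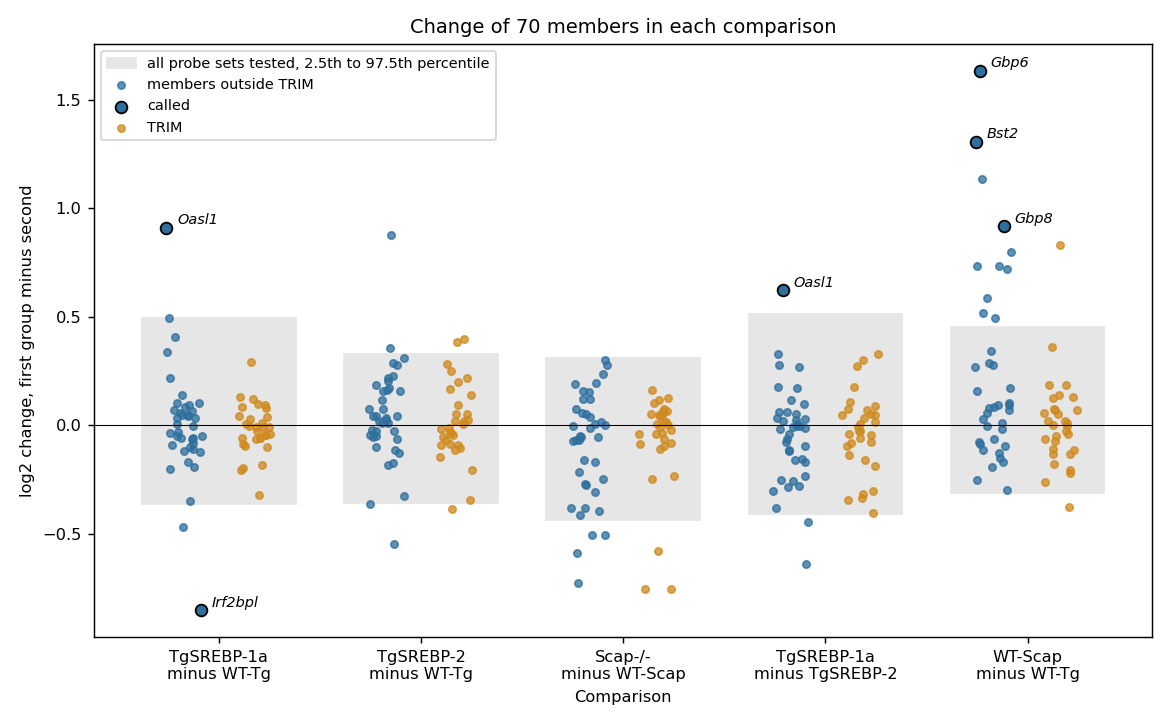
Log2 change of each of the 70 members (vertical axis) in the 5 comparisons (horizontal axis), with TRIM genes apart from the other members. Grey bands hold the changes of all 12411 probe sets without the top and the bottom 2.5%, and outlined, named points are called. In WT-Scap minus WT-Tg, 12 members lie above the band.

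Members with and without the promoter core were set side by side in this comparison. The 18 with GAAANNGAA in a window had a median change of 0.07 (-0.30 to 1.31), with 5 higher and 3 lower without overlap. The 36 with a window and no match had a median of 0.02 (-0.38 to 1.14), with 12 higher and 8 lower. Over all probe sets 17.4% were higher and 24.5% lower without overlap. Bst2, Rsad2, Ddx58, Samd9l and Trim12c have the core, while Oasl1, Oasl2 and Parp12 do not. Members with and without the core are thus found among those with the largest changes.

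A list of other interferon pathway genes, such as kinases, adaptors and further induced genes, had 35 of 110 measured. No gene of it was called in any of the 5 comparisons. In WT-Scap against WT-Tg 10 of the 35 had both arrays higher and 7 both lower, against 17.4% and 24.5% of all probe sets, and the median change was 0.03. An unadjusted p below 0.05 in limma was found for 8 of the 35 and for 1204 of all 12411 probe sets. The 5 with the greatest gain were Helz2 (0.57), Herc6 (0.45), Adar (0.41), Ddx60 (0.41) and Ly6e (0.40), with adjusted p from 0.164 to 0.291. All 5 are known as interferon-induced, but they were picked by gain from a list of interferon pathway genes. Among blood and resident cell markers, 3 of 17 macrophage or Kupffer cell genes were measured and none was called in this comparison. Their summed linear level was 400 and 292 in WT-Tg and 646 and 430 in WT-Scap. The iron exporter Slc40a1 carried that rise (8.49 and 7.97 against 9.24 and 8.61). Cd163 was slightly lower in WT-Scap, at 4.82 and 4.88 against 4.79 and 4.72, and Timd4 stayed between 3.29 and 3.78 on all arrays. The 3 measured lymphocyte markers of 20 summed to 54.8 and 59.0 in WT-Tg and to 50.1 and 52.0 in WT-Scap, and the 3 dendritic cell markers of 8 to 83.8 and 85.8 against 86.4 and 80.5. Of granulocyte markers 0 of 7 were measured, and the 5 endothelial, 2 stellate cell and 2 cholangiocyte markers measured had no call here. Of the 3 acinar markers measured, Cela3b was called lower in WT-Scap (-1.605, adjusted p = 0.00312), and Cpb1 changed by -0.88 and Ctrc by -0.15. The part of these cells in the result was not tested.

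Loss of SCAP was compared with the wild type pool that had the same injections. No member was called, against 0.274% of all probe sets, and 11 of 70 had an unadjusted p below 0.05 in limma's test, as had 960 of all 12411 probe sets. The members that had the largest differences were lower in Scap-/-. The bottom 2.5% of all probe sets (2.51% as counted) had a change below -0.44, and 7 members lay there: Gbp6, Oasl2, Parp12, Parp3, Trim12a, Trim12c and Trim34a. This comparison shares its WT-Scap arrays with the one above, so the values stand side by side and are not independent of each other.

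Of these 7 members, 3 are TRIM genes that lie near each other on chromosome 7. Trim12a, a relative of the retrovirus restriction factor TRIM5, measured 4.95 and 4.84 in WT-Scap and 4.37 and 4.26 in Scap-/- (-0.58, SE 0.10, adjusted p = 0.0537). Both pairs were tight and apart, and the WT-Tg arrays, at 4.89 and 4.78, were near WT-Scap. Trim12c measured 6.57 and 6.18 against 5.87 and 5.37 (-0.76, SE 0.18, adjusted p = 0.263). With the replicate number as a block it was called. Trim34a measured 6.88 and 6.19 against 5.81 and 5.75 (-0.76, SE 0.20, adjusted p = 0.350), and WT-Scap array 1 was its single high array. Without WT-Scap array 2, Trim34a and Gbp8 were called. The Trim34a probe set is of a type that can match several family members. In GRCm38.p6, Trim34a (chr7:104244448-104262244), Trim12a (chr7:104299893-104315558) and Trim12c (chr7:104338754-104353358) lie near Trim6 (chr7:104218795-104235152), which changed by 0.01 (adjusted p = 0.989), and Trim30d (chr7:104470014-104507853), which changed by 0.06 (adjusted p = 0.926). The second Trim30d probe set changed by -0.29 (adjusted p = 0.510) and the second Trim6 probe set by -0.01. The 31 TRIM genes had a median of 0.00, with 5 higher and 9 lower without overlap, against 20.0% and 14.4% of all probe sets.

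Outside the TRIM family, Gbp6 measured 6.34 and 6.12 in WT-Scap and 5.84 and 5.17 in Scap-/- (-0.73, SE 0.20, adjusted p = 0.385). Oasl2 measured 6.75 and 6.95 against 6.44 and 6.24 (-0.51, SE 0.11, adjusted p = 0.156). Parp3, which acts in DNA repair, measured 6.60 and 6.28 against 6.06 and 5.80 (-0.51, SE 0.15, adjusted p = 0.432). These 3 pairs were apart. Parp12 measured 6.81 and 6.09 against 6.1 and 5.62 (-0.59, SE 0.24, adjusted p = 0.624), with overlap. Its second probe set changed by 0.09 (adjusted p = 0.910). Gbp8 (-0.41, adjusted p = 0.596) and Parp9 (-0.38, adjusted p = 0.624) were also lower without overlap. Bst2 (-0.38), Rsad2 (-0.28), Ddx58 (-0.31) and Parp14 (-0.40) overlapped between the genotypes. The greatest gains without overlap were in Isg20l2, a nuclease of ribosome assembly (0.28, adjusted p = 0.616), Oas2 (0.24, adjusted p = 0.681) and Tlr1, a sensor of bacterial lipopeptides (0.19, adjusted p = 0.688). The other Isg20l2 probe set changed by -0.36, and the mean of both by -0.04, so its direction is not settled. Oas2 stood at 6.66 and 6.81 in WT-Scap and 6.95 and 7.0 in Scap-/-, opposite in sign to its relative Oasl2. Over the 70 members 12 had both arrays higher and 19 both lower in Scap-/-, or 17.1% and 27.1%. The member median was -0.02 against 0.02 for all probe sets. The summed macrophage marker level was 646 and 430 in WT-Scap and 553 and 318 in Scap-/-. The acinar markers Cpb1 (-3.21, adjusted p = 0.000135) and Cela3b (-1.89, adjusted p = 0.000973) were called lower in Scap-/-, and Ctrc changed by -0.13. The part of these markers was not tested.

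**Figure D3:**
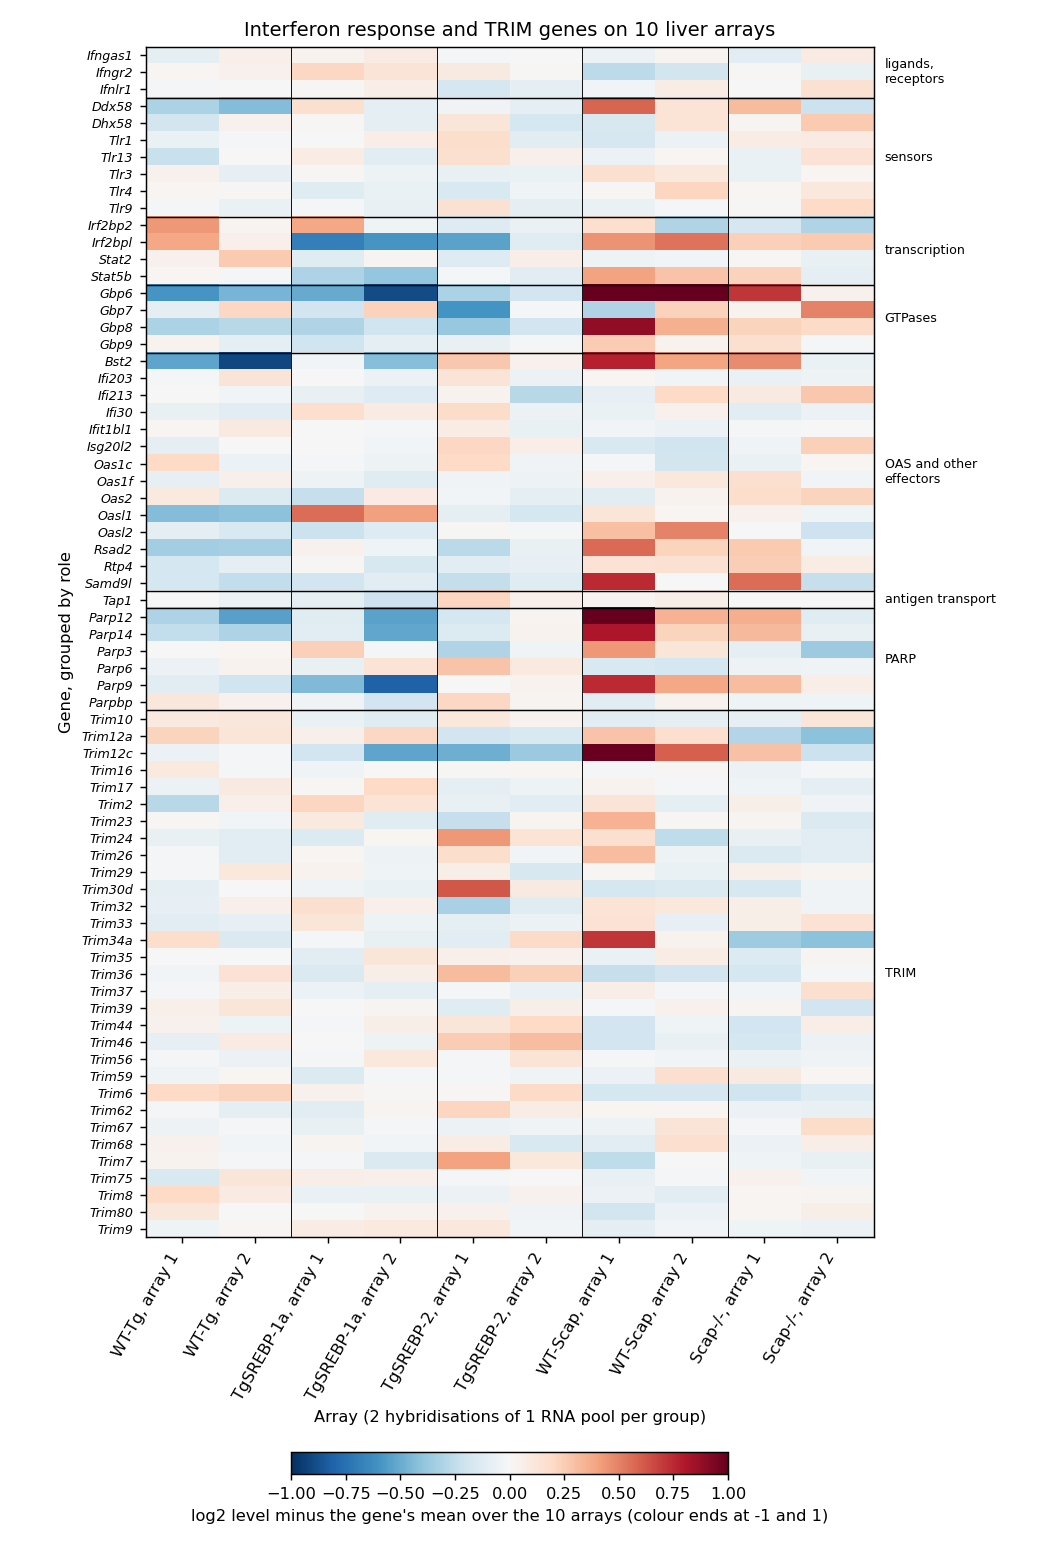
Log2 level of the 70 members (rows, by role) on the 10 arrays (columns), as the difference from each gene's mean over the arrays. Red is above and blue below that mean, with colours ending at -1 and 1. The red cells of the WT-Scap columns lie mostly in GTPases, effectors and PARP genes, and are deeper on array 1.

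The TgSREBP-1a transgene was compared with wild type littermates on the same diet. Of the 70 members 1 was called higher, Oasl1, and 1 lower, Irf2bpl. Over all probe sets 2.18% were called, so 2 of 70 is near the background share. Oasl1, an inhibitor of Irf7 translation in the mouse, measured 7.32 and 7.34 in WT-Tg and 8.32 and 8.17 in TgSREBP-1a. Duplicates were close and groups distant, a change of 0.91 (SE 0.095, 1.88-fold, adjusted p = 0.000419). This call held when any 1 of the 4 arrays was left out, with changes from 0.84 to 0.98. The gene lies at chr5:114923143-114937911 (GRCm38.p6). Among the other oligoadenylate synthetase genes, Oasl2 changed by -0.05, Oas1c by -0.10, Oas1f by -0.07 and Oas2 by -0.05, none of them called.

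Irf2bpl encodes a nuclear protein related to a corepressor of Irf2. It measured 8.42 and 8.08 in WT-Tg and 7.35 and 7.44 in TgSREBP-1a, a change of -0.85 (SE 0.15, 1.81-fold, adjusted p = 0.0106). Its 3 other probe sets changed by 0.07, 0.04 and -0.15, none called, and the called probe set is of a type with an incomplete probe choice. The mean of the 4 probe sets changed by -0.23 (adjusted p = 0.283), and the call was lost on leaving out either TgSREBP-1a array or WT-Tg array 1. Whether the gene or 1 transcript form differed cannot be read from these probe sets.

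**Figure D4:**
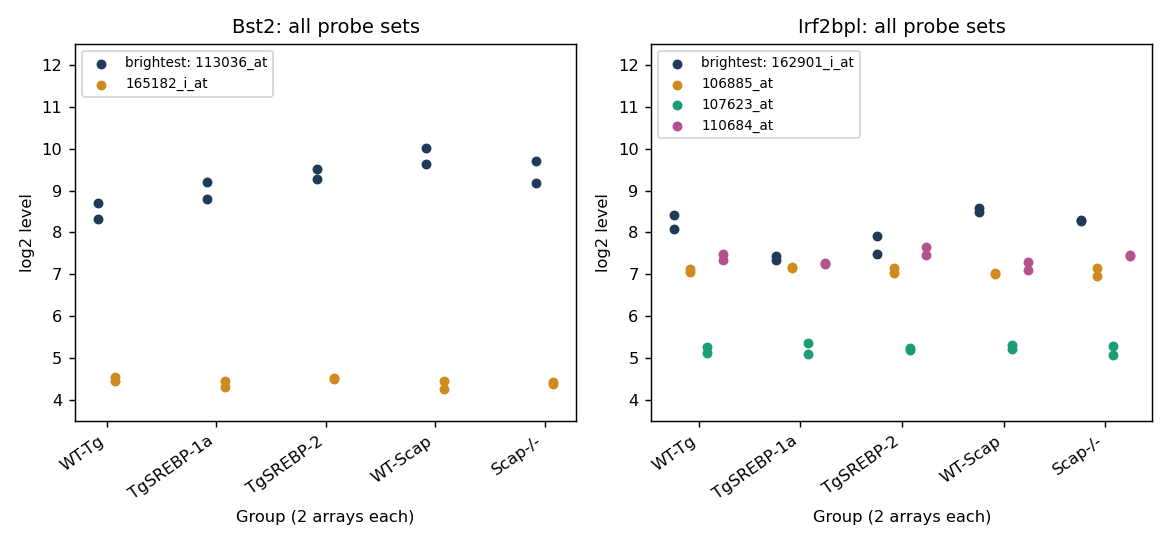
Log2 level (vertical axis) of every probe set of Bst2 (left) and Irf2bpl (right) in the 5 groups (horizontal axis). Each point is an array, 2 per group. The brightest probe set of each gene varies more between groups than the others. The 3 other Irf2bpl probe sets changed by 0.07, 0.04 and -0.15 in TgSREBP-1a against WT-Tg.

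Of the uncalled members, Bst2 was at 9.21 and 8.81 in TgSREBP-1a against 8.71 and 8.33 (0.49, adjusted p = 0.460), and Ddx58 at 7.29 and 7.04 against 6.82 and 6.70 (0.41, adjusted p = 0.484). Both pairs were just apart. Parp9 measured 7.04 and 6.67 against 7.38 and 7.28 (-0.47, SE 0.15, adjusted p = 0.207). Stat5b, the growth hormone signal transducer, measured 7.56 and 7.48 against 7.89 and 7.85 (-0.35, SE 0.12, adjusted p = 0.240). Gbp6 and Gbp8 changed by -0.17 and 0.05. No TRIM gene was called, and their changes ran from -0.32 to 0.29. Over the 70 members 11 had both arrays higher and 16 both lower, or 15.7% and 22.9%, against 19.0% and 23.4% of all probe sets. The member median was -0.01 against -0.02. The hepatocyte markers C8a, C8b and Fetub were called lower in this comparison. Of the 3 macrophage markers Cd163 was called higher (0.91), Timd4 changed by 0.07 and Slc40a1 by -0.27, and their summed level was 400 and 292 in WT-Tg and 374 and 268 in TgSREBP-1a. Of the 5 endothelial markers Lyve1 was called higher, and their sum was 780 and 731 against 905 and 844. The acinar markers Cpb1 (-4.67) and Cela3b (-3.84) were called lower, and Ctrc changed by -0.22. The part of these cells in the values above was not tested.

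In TgSREBP-2 livers no member was called, against 0.5% of all probe sets, and 7 of 70 had an unadjusted p below 0.05 in limma's test, as had 983 of all 12411 probe sets. Bst2 had the largest change, 9.51 and 9.28 in TgSREBP-2 against 8.71 and 8.33 in WT-Tg (0.88, SE 0.21, 1.84-fold, adjusted p = 0.202). The pairs were well apart, but the second Bst2 probe set changed by 0.00 and the mean of both by 0.44. Oasl1 measured 7.66 and 7.58 against 7.32 and 7.34 (0.29, SE 0.095, adjusted p = 0.491). Irf2bpl measured 7.49 and 7.91 against 8.42 and 8.08 (-0.55, SE 0.15, adjusted p = 0.292), and the duplicates of TgSREBP-2 differed by more than their gap to the nearest control array. The other Irf2bpl probe sets changed by -0.005, 0.018 and 0.143, none called. The TRIM genes Trim30d (0.40) and Trim24 (0.38) were higher and Trim12c (-0.39) and Trim12a (-0.34) lower without overlap, with adjusted p from 0.345 to 0.651. Trim30d measured 7.598 and 7.066 against 6.886 and 6.979, so TgSREBP-2 array 1 carried its difference, and leaving out array 2 made it the 1 call. Its second probe set changed by -0.26 and the mean of both by 0.07.

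In TgSREBP-2 both arrays were higher in 22 of 70 members and both lower in 10, or 31.4% and 14.3%, against 15.6% and 24.4% of all probe sets. The member median was 0.02 against -0.02. The 39 members outside the TRIM family gave 14 higher and 5 lower, and the 31 TRIM genes 8 and 5. Gbp6 was at 4.82 and 4.94 against 4.54 and 4.66 (0.28, adjusted p = 0.768), and Parp12 at 5.57 and 5.77 against 5.43 and 5.20 (0.35, adjusted p = 0.753). Neither passed the test. The second Parp12 probe set changed by -0.46 (adjusted p = 0.557), so the direction of Parp12 is not settled. The acinar markers were also higher in TgSREBP-2, Ctrc by 1.51 (called, adjusted p = 8.88e-05), Cpb1 by 0.63 and Cela3b by 0.63, and their part was not tested.

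The 2 transgenic pools were also compared directly, on the same diet and with no shared control in the contrast. Of the 70 members Oasl1 was the only one called, against 1.86% of all probe sets. Its TgSREBP-1a arrays (8.32 and 8.17) exceeded its TgSREBP-2 arrays (7.66 and 7.58) by 0.62 (SE 0.095, 1.54-fold, adjusted p = 0.00632). The call was lost without TgSREBP-1a array 1 (0.55, adjusted p = 0.0988) and without TgSREBP-2 array 2, where the change of 0.58 fell just short of 1.5-fold. Parp9 was lower in TgSREBP-1a, 7.04 and 6.67 against 7.48 and 7.52 (-0.64, SE 0.15, adjusted p = 0.0623), as were Gbp6 (-0.45, adjusted p = 0.335) and Trim30d (-0.40, adjusted p = 0.235). Trim32 (0.33) and Trim12a (0.30) were higher, with adjusted p of 0.179 and 0.195. The member median was -0.02 against 0.01 for all probe sets. Markers were called in this contrast too. The hepatocyte markers C8a, C8b and Fetub and the acinar markers Cpb1 (-5.30), Cela3b (-4.47) and Ctrc (-1.73) were lower in TgSREBP-1a. Cd163, Lyve1 and the endothelial marker Ptprb were higher. The part of these markers was not tested.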

How the data were processed

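Per the submitters' processing notes, the authors made the deposited log2 values with RMA, with no version given. RMA corrects background, equalises array distributions and summarises each probe set, so a shift shared by most genes is removed. The design text also names MICROARRAY SUITE 5.0, and which role it had for these values is not stated there. Of 12477 rows, 66 control probe sets were left out. Symbols came from the platform annotation: 10581 probe sets had 1, 178 several and 1652 none. All 70 members matched a RefSeq table by gene ID. limma 3.58.1 in R 4.3.3 (lmFit, eBayes) fitted 1 coefficient per group to all 10 arrays, two-sided, with Benjamini-Hochberg adjustment over 12411 probe sets, and the method was tested on simulated data. Python 3.11.15 selected the members and searched promoters. Both arrays of a group share 1 pool. Precision is limited by having 2 arrays per group, with a median SE of 0.115 for a log2 change. Values were named for called members, for the 3 largest rises and falls without overlap per comparison, and for the brightest members per role; others named, such as relatives of these, were chosen after their values were seen. The members and lists were chosen with earlier results of these data known. Alternatives were the 4 arrays compared, an intensity trend, robust eBayes, a replicate block, median centring, quantile normalization, no dim probe sets, the mean of a gene's probe sets, no minimum fold, and leaving out each array.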

Additional observations from a re-analysis of the deposited data

Results flagged for a closer look

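The effect of TgSREBP-1a on Oasl1 exceeded that of TgSREBP-2, each against WT-Tg, by 0.622 on the log2 scale. The difference itself was tested by the direct contrast of both transgenic pools (limma, adjusted p = 0.00632, 1.54-fold). Both TgSREBP-1a arrays were above both TgSREBP-2 arrays. Leaving out 1 array gave differences of 0.548 to 0.696, and the call did not hold each time. With 2 arrays per group, no group could be examined for a single distant array.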

How the results depend on the processing

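Against 2 members called in TgSREBP-1a minus WT-Tg, the mean of a gene's probe sets gave 1, and leaving out 1 array gave 1 to 2. TgSREBP-2 minus WT-Tg had 0, and quantile normalization gave 1 (Bst2) and leaving out 1 array 0 to 1. Scap-/- minus WT-Scap had 0, and leaving out 1 array gave 0 to 2. TgSREBP-1a minus TgSREBP-2 had 1, the 4 arrays alone and quantile normalization gave 2 (with Parp9), and leaving out 1 array 0 to 1. WT-Scap minus WT-Tg had 3, the 4 arrays alone gave 1, quantile normalization 5, and leaving out 1 array 0 to 8. Isg20l2 in Scap-/- minus WT-Scap changed sign with the mean of its probe sets, from 0.279 to -0.039 (adjusted p = 0.933). Where 1 array of a group is left, it is assumed to vary like the other groups. Causes were not tested. Apart from these and the replicate block, the alternatives kept every count within 1.5 times, and 41 members remained when dim probe sets were left out.

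The labels give replicate numbers but no meaning for them. Differences of array 1 minus array 2, over all probe sets, correlated at 0.343 to 0.598 among WT-Tg, TgSREBP-1a, WT-Scap and Scap-/-. Those of TgSREBP-2 correlated at -0.167 to 0.113 with the other groups. Arrays of the same number thus deviated together in all groups but TgSREBP-2. Whether they were handled together is not labelled, so the numbers were not shown to pair the arrays. With the replicate number as a block, 1 member was called in TgSREBP-2 minus WT-Tg (Bst2), 1 in Scap-/- minus WT-Scap (Trim12c), 2 in TgSREBP-1a minus TgSREBP-2 and 9 in WT-Scap minus WT-Tg.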
